A study of Mus musculus with 4 samples.

Results

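Chemokines, the small secreted proteins that direct the migration of leukocytes, were followed as 10 genes in 4 mouse tumors. The genes were Ccl2, Ccl5, Ccl6, Ccl7, Ccl9, Cxcl1, Cxcl9, Cxcl10, Cxcl12 and Cxcl14, and every probe set annotated to exactly 1 of these symbols was taken, which gave 14 probe sets of the 22626 on the array that are not controls. The rule itself uses no measured value, but the genes were chosen with earlier results of these data known. The tumors were grown under the skin of nude mice (NCR Nu/Nu) from 10000000 injected immortalized baby mouse kidney epithelial (iBMK) cells each, and 1 array was hybridized per tumor. The cells of 2 tumors expressed p62-EGFP, the autophagy adaptor p62 fused to the fluorescent protein EGFP, and in the other 2 tumors the cells carried EGFP alone, in isogenic lines. Both groups were ATG5-/-, so without the autophagy gene Atg5, and both expressed Bcl-2, so the controls carry these changes too. No treatment was given, and the labels name neither the age of the mice nor the promoter that drove the fusion protein. Nor do they tie the 2 tumors of a group to different mice or cultures, so p-values here measure only the spread between these tumors, which may be technical.

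Nude mice lack a thymus and most T cells but keep macrophages, natural killer (NK) cells and B cells, which can enter a tumor. A chemokine transcript in a tumor RNA sample can therefore come from the injected epithelial cells or from host leukocytes, vessels and fibroblasts. CC chemokines such as Ccl2, Ccl5 and Ccl7 attract monocytes, macrophages and lymphocytes. Among the CXC chemokines, Cxcl1 attracts neutrophils, Cxcl9 and Cxcl10 are induced by interferon gamma and attract NK and activated T cells through the receptor Cxcr3, and Cxcl12 is a homeostatic ligand of stromal cells for Cxcr4. Many inducible chemokine genes are turned on by NF-kB, an inflammatory transcription factor, and p62 is a scaffold of signalling complexes that lead to it.

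The genes lie in clusters. In the RefSeq gene order of assembly GRCm38.p6, Ccl2 and Ccl7 are neighbours on chromosome 11, and Ccl5, Ccl9 and Ccl6 follow each other farther along it. Cxcl9 and Cxcl10 lie on chromosome 5 with 1 protein-coding gene, Art3, between them, and Cxcl1 lies on the same chromosome beside Cxcl15 and Cxcl2. Promoter sequence was held for 7 of the 10 genes in the RefSeq table and not for Ccl2, Ccl5 and Ccl7. The 250 bases before the start site are shown for the neighbours Cxcl9 and Cxcl10, for Cxcl1 and, as a contrast, for Cxcl12, whose order across the tumors differed from theirs. Capitals mark matches to a kB motif of NF-kB (GGGA and CC with any 4 bases between), an interferon-stimulated response element (GAAA and GAAA with any 2 bases between) or a hypoxia response element (ACGTG), searched on both strands.
Cxcl9, minus strand, chr5:92328080-92328329: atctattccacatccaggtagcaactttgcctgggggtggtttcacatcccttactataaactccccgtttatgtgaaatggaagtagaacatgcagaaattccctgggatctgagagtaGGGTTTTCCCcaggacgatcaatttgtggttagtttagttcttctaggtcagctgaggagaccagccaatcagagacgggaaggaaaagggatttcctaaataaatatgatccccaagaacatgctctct
Cxcl10, minus strand, chr5:92348890-92349139: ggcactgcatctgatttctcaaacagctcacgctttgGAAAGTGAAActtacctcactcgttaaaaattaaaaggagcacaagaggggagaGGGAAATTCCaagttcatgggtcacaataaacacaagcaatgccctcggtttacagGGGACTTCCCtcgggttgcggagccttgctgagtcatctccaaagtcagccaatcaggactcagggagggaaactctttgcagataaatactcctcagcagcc
Cxcl1, plus strand, chr5:90890995-90891244: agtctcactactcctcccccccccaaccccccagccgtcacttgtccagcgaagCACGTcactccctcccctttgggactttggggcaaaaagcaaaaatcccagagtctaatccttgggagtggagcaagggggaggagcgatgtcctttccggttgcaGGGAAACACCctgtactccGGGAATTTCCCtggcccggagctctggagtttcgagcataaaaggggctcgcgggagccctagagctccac
Cxcl12, plus strand, chr6:117168285-117168534: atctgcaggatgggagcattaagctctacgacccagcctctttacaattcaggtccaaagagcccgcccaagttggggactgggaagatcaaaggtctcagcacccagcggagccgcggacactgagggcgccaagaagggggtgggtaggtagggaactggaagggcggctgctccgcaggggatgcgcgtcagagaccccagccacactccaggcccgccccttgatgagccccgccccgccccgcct
The Cxcl10 window held the response element at 213 to 204 bases before the start and kB matches at 159 to 150 and 103 to 94 bases, the last of them on both strands. Cxcl9 had 1 kB match, at 130 to 121 bases on the opposite strand. The Cxcl1 window held kB matches at 90 to 81 and 71 to 61 bases, where a match on each strand overlapped, and a hypoxia element at 196 to 192 bases. Of the letters searched, none stood in the Cxcl12, Ccl6 or Ccl9 window, and Cxcl14 had 1 response element. Among 32851 windows of this length from all genes, 17.6% held the kB motif, 2.98% the response element and 16.6% the hypoxia element. A match describes these letters only and does not show that a factor binds there.

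Values below are the authors' scaled MAS5 signals on a linear scale, and differences are on a log2(signal + 16) scale, which understates those of dim probe sets. Over all arrays the medians lay between 57.7 and 60.9. Across 13576 probe sets, which are no independent replicates, log2 signals correlated at r = 0.980 between the p62-EGFP tumors and at 0.901 between the EGFP tumors. Sqstm1, which encodes p62, read 1432.7 and 1687.8 in p62-EGFP tumors 1 and 2, against 975.8 and 1156.1 in EGFP tumors 1 and 2. The brightest Atg5 probe set read 91.3 and 93.9 against 118.7 and 102.8, and whether its probes lie in the deleted part was not checked here. Of the epithelial markers, the keratin gene Krt18 read 544.6 and 627.1 in p62-EGFP tumors, against 729.6 and 253.9 in EGFP tumors, the adhesion gene Epcam 360.7 and 660.3 against 351.0 and 108.9, and Krt19 332.9 and 341.3 against 93.6 and 156.2. The groups overlapped for Krt18, and for Epcam and Krt19 both p62-EGFP tumors were the higher. The 4 measured kidney lineage genes of 5 listed (Lhx1, Cdh6, Pax8 and Cdh16) summed to between 22 and 47.8 in every tumor.

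EGFP tumor 2 stood apart from the other 3 tumors in the leukocyte, macrophage, and NK and T cell lists, before any chemokine is considered. The lists of mast cells and of B and plasma cells, given beside Cxcl12 below, did not set it apart. Their sums were 689.7 and 366.3 in EGFP tumor 1 and 509.8 and 354.5 in EGFP tumor 2. The 5 measured dendritic cell genes, led by Batf3, Itgax and Cd209a, summed to 97.0 and 98.0 in p62-EGFP tumors, against 119.6 and 386.3 in EGFP tumors. EGFP tumor 2 was thus the highest there too, and Itgax (31.6 and 28.4 against 19.4 and 234.8) made up most of its sum. The 5 leukocyte genes, led by Cd52, by Ptprc, the pan-leukocyte CD45, and by Coro1a, summed to 436.2 and 540.5 in p62-EGFP tumors 1 and 2, against 291.4 in EGFP tumor 1 and 4691.0 in EGFP tumor 2. The 13 macrophage genes, led by Lyz1, Lyz2 and C1qa, summed to 3838.1 and 3803.9 against 2008.8 and 12875.0, and no one of them read under 20 in any tumor. For the 14 genes of NK and T cells, led by Thy1, Klrk1 and Nkg7, the sums were 140.1 and 174.4 against 132.6 and 3993.1, with 13, 13 and 12 of the 14 under 20 in p62-EGFP tumors 1 and 2 and EGFP tumor 1, and 0 in EGFP tumor 2. Cd3g and Cd8a, T cell genes chosen after their values were seen, were dim outside it: Cd3g read 5.4 and 8.9 in p62-EGFP tumors, against 7.4 and 202.6 in EGFP tumors, and Cd8a 9.2 and 6.1 against 5.0 and 148.3. Each chemokine difference below is given with and without this tumor, and the part of these cells in it was not tested. In such bulk RNA, fewer cells of a type and less RNA per cell cannot be told apart.

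**Figure D1:**
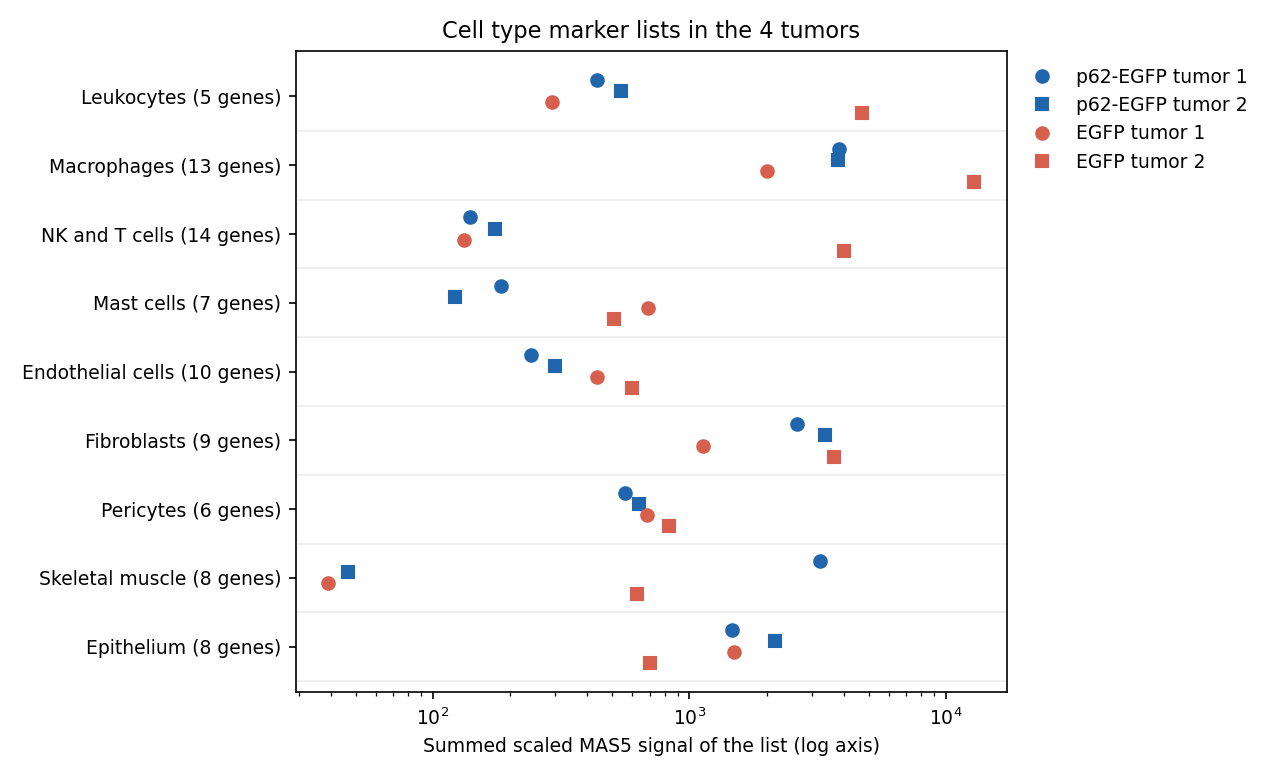
Summed scaled MAS5 signal (log axis) of the measured genes of 9 cell type marker lists in each tumor, with p62-EGFP tumors in blue and EGFP tumors in red, circles for tumor 1 and squares for tumor 2. EGFP tumor 2 lies far right of the other 3 tumors for leukocytes (4691.0) and for NK and T cells (3993.1), and skeletal muscle genes are highest in p62-EGFP tumor 1 (3225.1).

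Setting p62-EGFP tumors against EGFP tumors asks whether excess p62 in cells without autophagy goes with a change in these signals. With all 4 tumors, 0 of the 10 tested chemokine probe sets passed the test (limma, Benjamini-Hochberg adjusted p threshold of 0.05), where 0.0884% of all 13576 tested probe sets passed (0.0589% higher and 0.0295% lower in p62-EGFP). These 10, of 7 genes, had a mean log2 signal at or above the 40th percentile, and Ccl7, Cxcl1 and Cxcl14 lay under it. At an unadjusted limma p below 0.05, the 2 probe sets of Cxcl12 differed, both lower, against 14.5% of all tested probe sets in either direction and 5.77% lower. In 3 of the 14, the highest p62-EGFP value was under the lowest EGFP value, which were Ccl5 and both probe sets of Cxcl12, where 22.2% of all tested probe sets did so. No chemokine probe set had both p62-EGFP tumors above both EGFP tumors, against 26.7% of all tested probe sets. The median log2 difference was -0.72 over the 10 tested probe sets, against 0.017 over all tested ones. Over the 14, filtered or not, it was -0.19, against 0.026 over all probe sets, filtered or not. Without EGFP tumor 1, 8 chemokine probe sets passed (limma), all lower in p62-EGFP, where 9.74% of all tested probe sets were lower. Without EGFP tumor 2, 4 passed, 2 higher (Ccl6 and Ccl9, against 5.15% of all) and 2 lower (Cxcl12, against 4.38% of all). The signal filter kept 14 chemokine probe sets in the fit without EGFP tumor 1, Ccl7 among them, and 10 in the fit without EGFP tumor 2. The counts of these fits are thus not over the same probe sets, and each fit rests on a lone EGFP tumor. Without p62-EGFP tumor 1 the median log2 difference over the 14 was 0.039, and without p62-EGFP tumor 2 it was -0.43. No tested probe set of any gene passed in these fits, so they cannot tell chemokines from other genes.

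**Figure D2:**
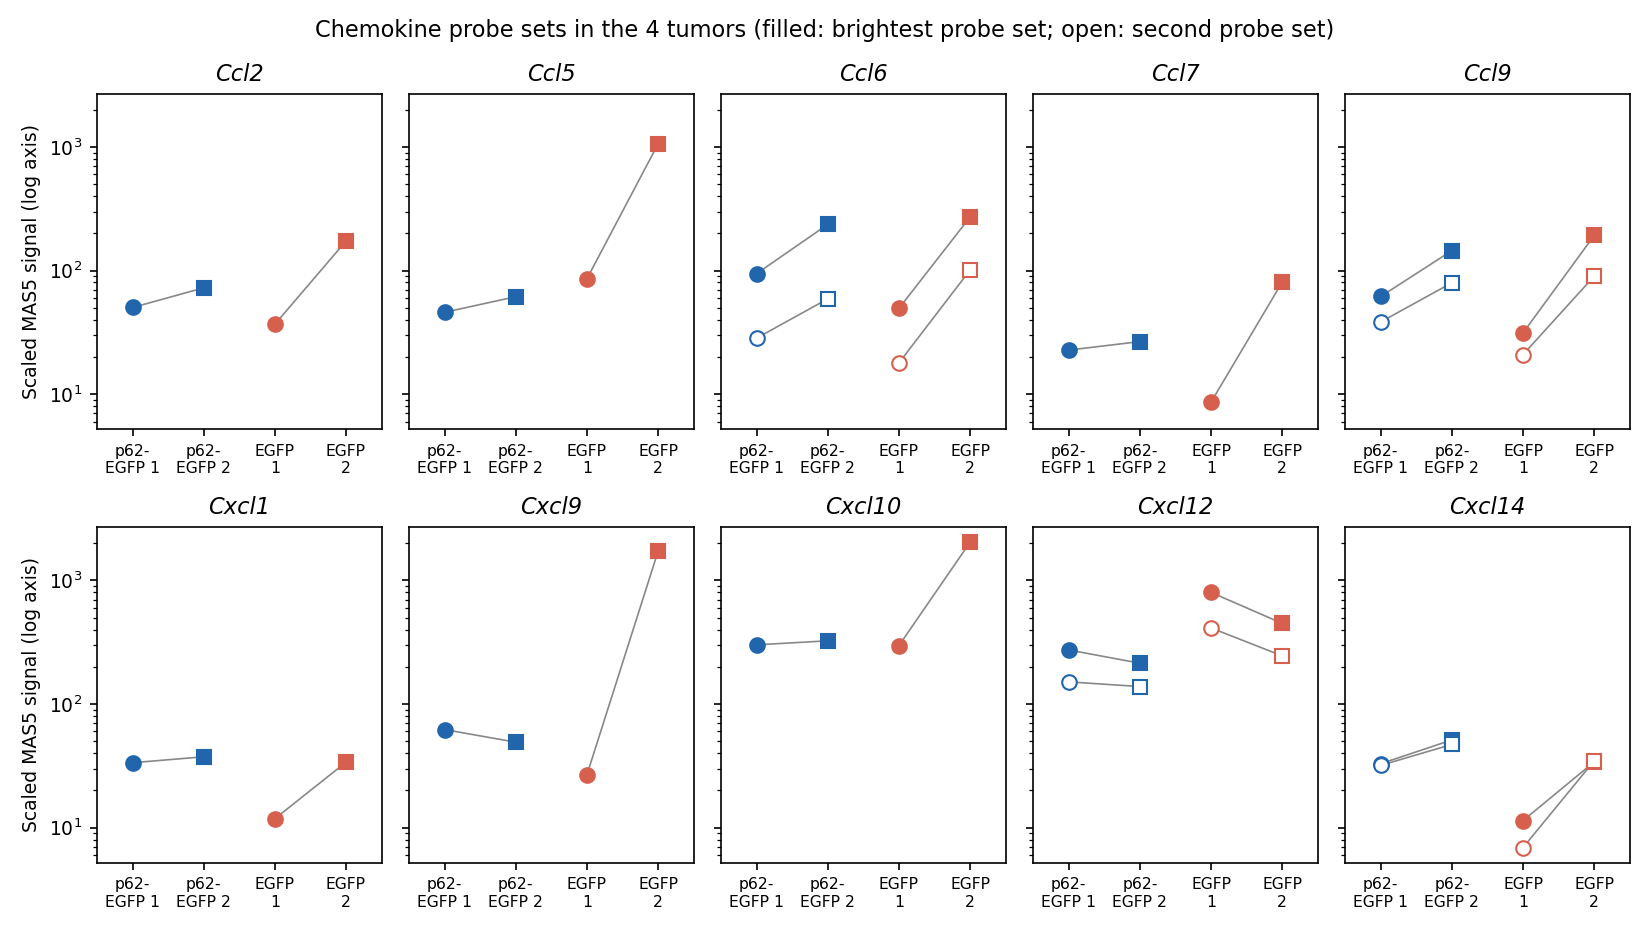
Scaled MAS5 signal (log axis) of each chemokine gene in p62-EGFP tumors 1 and 2 (blue) and EGFP tumors 1 and 2 (red), with filled symbols for the brightest probe set of a gene and open ones for its second, and grey lines joining the tumors of a group. EGFP tumor 2 is the highest tumor for Ccl2, Ccl5, Ccl6, Ccl7, Ccl9, Cxcl9 and Cxcl10, and for Cxcl12 both EGFP tumors lie above both p62-EGFP tumors.

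Cxcl12 was the one chemokine whose groups were apart on each of 2 probe sets, and it read lower with p62-EGFP. Its brighter probe set (1448823_at) read 273.8 and 213.9 in p62-EGFP tumors 1 and 2, against 800.6 and 449.6 in EGFP tumors 1 and 2. On the second probe set (1417574_at) the signals were 151.1 and 138.4 against 412.8 and 245.4. Both probe sets put the 4 tumors in the same order, from EGFP tumor 1 down to p62-EGFP tumor 2, and the groups did not overlap. The log2 differences were -1.26 (SE 0.30, 95% interval -2.02 to -0.49) and -1.06 (SE 0.27, 95% interval -1.74 to -0.38). After adjustment over all tested probe sets neither passed (limma, Benjamini-Hochberg adjusted p = 0.221 and 0.229), and they ranked as the 145th and 238th lowest of 13576 differences. Measured against EGFP tumor 1 alone the differences were -1.66 and -1.42, and against EGFP tumor 2 alone -0.85 and -0.70. Fits with 1 EGFP tumor can estimate the spread only between p62-EGFP tumors 1 and 2, and assume that the lone tumor varies like them. In them Cxcl12 passed without EGFP tumor 1 (limma adjusted p = 0.0130 and 0.0187) and without EGFP tumor 2 (limma adjusted p = 7.22e-04 and 0.00111), where 20.9% and 9.53% of all tested probe sets passed.

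Because Cxcl12 is made by stromal cells, marker lists of such cells were set beside it. The 9 fibroblast genes, led by the collagen genes Col3a1 and Col1a2 and by Postn, summed to 2627.4 and 3377.8 in p62-EGFP tumors, against 1128.2 and 3671.2 in EGFP tumors, so EGFP tumor 1, which had the most Cxcl12 signal, had the lowest fibroblast sum. The 10 endothelial genes, led by Esam, Pecam1 and Kdr, summed to 242.1 and 298.1 against 435.7 and 596.4. Of these, 5 of the 7 tested had both p62-EGFP tumors below both EGFP tumors (22.2% of all tested probe sets). Flt1 (39.7 and 37.8 against 23.8 and 41.4) and Tek (32.2 and 36.4 against 25.1 and 39.2) overlapped. In EGFP tumors 1 and 2, Cdh5 (60.2 and 56.7) and Cldn5 (70.8 and 68.8) had the order of Cxcl12, and the other tested genes had the opposite one. Flt1, Tek, Cdh5 and Cldn5 were named after their values were seen. Pericyte genes, of which 6 were measured with Acta2, Rgs5 and Notch3 the brightest, summed to 562.1 and 637.4 against 681.9 and 833.3. Of the pericyte genes, 3 of the 4 tested had both p62-EGFP tumors below both EGFP tumors (22.2% of all tested probe sets) and 1, the actin gene Acta2, had both above (26.7% of all tested probe sets). Under the signal filter, Des (49.1 and 40.5 against 14.6 and 33.3) and Cspg4 (32.2 and 23.0 against 19.1 and 18.8) had both above too. These were named after their values were seen. Of the genes that were lower, Rgs5 differed most (137.6 and 137.5 against 319.2 and 367.1). The endothelial and pericyte sums were lower in both p62-EGFP tumors, as Cxcl12 was, but in both sums EGFP tumor 2 lay above EGFP tumor 1, which is opposite to Cxcl12. The 8 epithelial genes summed to 1471.1 and 2162.4 against 1489.8 and 700.7. Of leukocyte lists, the 7 mast cell genes, led by Tpsab1, Kit and Cpa3, summed to 184.6 and 122.1 against 689.7 and 509.8, which is the order of the tumors that Cxcl12 had, although Kit (97.3 and 73.3 against 55.6 and 74.3) and 2 dimmer genes of the list did not share it. The 5 measured genes of B and plasma cells, led by Ighm, Jchain and Ms4a1, summed to 78.8 and 69.8 against 366.3 and 354.5. The order of the EGFP tumors in that sum was set by Ighm alone (51.5 and 44.4 against 335.0 and 235.8), and the other 4 genes, which were dim, read higher in EGFP tumor 2 than in EGFP tumor 1. The part of these cell types in the Cxcl12 difference was not tested.

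The receptors of Cxcl12 ordered the tumors otherwise. Cxcr4, its signalling receptor, read 100.3 and 133.5 in p62-EGFP tumors, against 131.0 and 225.1 in EGFP tumors, so p62-EGFP tumor 2 lay above EGFP tumor 1 (log2 difference -0.51, SE 0.29, limma adjusted p = 0.457). Ackr3, an atypical receptor that takes up Cxcl12, read 116.3 and 101.9 against 105.5 and 66.4 (log2 difference 0.32, SE 0.24, limma adjusted p = 0.564). By the smallest distance between log2 values centred on their mean over the 4 tumors, the genes most like Cxcl12 among 7743 were Jund, a member of the Jun family, and Zeb1, a transcription factor of mesenchymal cells. Jund read 391.6 and 350.1 in p62-EGFP tumors, against 1073.6 and 588.9 in EGFP tumors. Zeb1 read 95.4 and 78.9 against 249.5 and 165.4. A profile of 4 tumors is short, and 452 genes lay within a distance of 1 of Cxcl12.

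The interferon-induced ligands Cxcl9 and Cxcl10 and the T cell and NK cell attractant Ccl5 were all highest by far in EGFP tumor 2. Cxcl9 (1418652_at) read 62.1 and 49.1 in p62-EGFP tumors, against 26.7 in EGFP tumor 1 and 1715.9 in EGFP tumor 2. The p62-EGFP tumors thus lay between the EGFP tumors, which differed from each other 64.3-fold. Its log2 difference of tumor 2 minus tumor 1, 5.34 in the EGFP group, was the 2nd highest of 13576 tested probe sets. Between groups the log2 difference was -1.93 (SE 1.64, 95% interval -6.08 to 2.21, limma adjusted p = 0.606). Against EGFP tumor 1 alone the difference turned to 0.74, and against EGFP tumor 2 alone it was -4.60.

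Cxcl10 (1418930_at) was level in 3 of the tumors. It read 301.3 and 324.6 in p62-EGFP tumors, against 297.0 and 2036.5 in EGFP tumors 1 and 2, so EGFP tumor 2 alone was high. The Cxcl9 promoter window held 1 kB match, and that of Cxcl10 held 2 such stretches and the interferon response element. The log2 difference was -1.29 (SE 0.84, 95% interval -3.41 to 0.84, limma adjusted p = 0.515). Without EGFP tumor 2 the difference was 0.071, and without EGFP tumor 1 it was -2.64. Cxcl11, the third Cxcr3 ligand and chosen after its values were seen, read 16 and 26.8 against 9.6 and 202.8, so of the 4 tumors only EGFP tumor 2 was high. Their receptor Cxcr3, also chosen after its values were seen, lay under the signal filter, at 11.5 and 26.8 against 14.1 and 97.0.

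Ccl5 (1418126_at), also known as RANTES, was the chemokine with the lowest log2 difference. Its signals were 45.9 and 61.4 in p62-EGFP tumors, against 85.6 and 1055.9 in EGFP tumors 1 and 2. The groups did not overlap, though EGFP tumor 1 was close to the p62-EGFP pair and EGFP tumor 2 read 12.3-fold more than EGFP tumor 1. The log2 difference of -2.25 ranked as the 15th lowest of 13576, and with an SE of 1.06 and a 95% interval of -4.92 to 0.41 it did not pass (limma adjusted p = 0.392). Against EGFP tumor 1 alone it was -0.55, and against EGFP tumor 2 alone -3.95. Ccl5 lies on chromosome 11, whose 1103 tested probe sets with 1 symbol had a median log2 difference of 0.30, opposite in sign to Ccl5. Ccl2, Ccl7, Ccl6, Ccl9 and Sqstm1 lie on chromosome 11 too. Ccl2 (-0.38) and Ccl7 (-0.26) were also opposite in sign. The brighter probe sets of Ccl6 (0.29) and Ccl9 (0.17), and Sqstm1 (0.54), had the same sign as that median. The part of this shift in these differences was not tested.

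The 2 genes nearest to each of these ligands over the 4 tumors, by the same distance, were leukocyte or interferon genes. Only genes that passed the signal filter were searched. Those named read far higher in EGFP tumor 2 than in the other tumors, so the likeness rests mostly on that tumor. For Cxcl9 they were Fgl2, a secreted protein of leukocytes (24.8 and 34.3 against 9.0 and 623.9), and Gbp2b, an interferon-induced guanylate-binding protein (22.1 and 27.5 against 20.2 and 653.8). Ccl5 was nearest to another guanylate-binding gene, Gbp6 (19.5 and 25.0 against 33.0 and 426.3), and to Nkg7, a granule protein of NK and T cells (8.4 and 16.4 against 14.0 and 413.1). Cxcl10 was nearest to Lpxn (25.1 and 26.8 against 22.5 and 216.2) and Hcls1 (19.8 and 22.8 against 15.4 and 189.1), both expressed in blood cells. Within a distance of 1 lay 5 genes for Cxcl9, 31 for Ccl5 and 167 for Cxcl10.

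Upstream of these ligands, the transcript of interferon gamma itself (Ifng) read near 0 outside EGFP tumor 2. Ifng, chosen after its values were seen, read 0.2 and 3.1 in p62-EGFP tumors, against 0.4 and 112.4 in EGFP tumors 1 and 2, under the signal filter. Of 14 listed genes of the interferon arm 11 were tested, with 0 passing. At an unadjusted limma p below 0.05 stood 4 of the 11 (14.5% of all tested probe sets), and 6 had both p62-EGFP tumors below both EGFP tumors (22.2% of all). Their median log2 difference was -0.64, against 0.017 over all tested probe sets, with -0.28 against EGFP tumor 1 alone and -0.90 against EGFP tumor 2 alone. Its brightest members were the kinase gene Jak1 (351.3 and 384.9 against 479.5 and 700.8), the interferon regulatory factor genes Irf7 (177.6 and 365.7 against 394.3 and 807.3) and Irf1 (207.7 and 220.1 against 205.7 and 1122.5), and Jak2 (204.0 and 185.1 against 239.8 and 316.0). Irf1 was thus level in 3 tumors and high in EGFP tumor 2, as Cxcl10 was, whereas for Irf7, Jak1 and Jak2 p62-EGFP was the lower group with no overlap.

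Of the other genes that interferon gamma induces, some placed the p62-EGFP tumors below EGFP tumor 1 too. Of 12 listed genes 9 were tested, 0 passed, 4 stood at an unadjusted limma p below 0.05 (14.5% of all tested probe sets), and 4 had both p62-EGFP tumors below both EGFP tumors (22.2% of all). The median log2 difference of -1.82 differed between the EGFP tumors, with -0.20 against EGFP tumor 1 alone and -2.56 against EGFP tumor 2 alone. Of the immunoproteasome subunits, Psmb8 read 244.3 and 316.3 in p62-EGFP tumors, against 660.2 and 1342.3 in EGFP tumors, and Psmb9 141.3 and 156.0 against 439.4 and 957.1. The GTPase gene Iigp1 read 106.4 and 188.0 against 300.7 and 2885.7, and another, Irgm1, 200.3 and 348.5 against 229.4 and 1087.3. The smallest limma adjusted p of the list was 0.184.

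Monocyte attractants Ccl2 and Ccl7 read higher in the p62-EGFP tumors than in EGFP tumor 1 and lower than in EGFP tumor 2. Ccl2 (1420380_at), which draws monocytes through the receptor Ccr2, read 50.2 and 72.4 in p62-EGFP tumors, against 36.7 and 173.1 in EGFP tumors 1 and 2. Its log2 difference was -0.38 (SE 0.60, 95% interval -1.90 to 1.14, limma adjusted p = 0.787), with 0.54 against EGFP tumor 1 alone and -1.31 against EGFP tumor 2 alone. Ccl7 (1421228_at), another Ccr2 ligand, read 22.7 and 26.6 against 8.6 and 80.3, and its log2 difference of -0.26, under the signal filter, did not pass where dim probe sets were kept (limma adjusted p = 0.893). It was 0.72 against EGFP tumor 1 alone and -1.25 against EGFP tumor 2 alone. The distance between the centred profiles of these neighbours was 0.25, the second smallest of the pairs of chemokine genes. Ccr2 read 20.7 and 38.2 in p62-EGFP tumors, against 13.4 and 135.9 in EGFP tumors, the same order as for its ligands (log2 difference -0.58, SE 0.77, limma adjusted p = 0.743).

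Ccl6 and Ccl9, neighbouring CC chemokine genes of rodent myeloid cells that act on the receptor Ccr1, were set apart by a difference between the p62-EGFP tumors. The brighter Ccl6 probe set (1417266_at) read 94.4 and 236.4 in p62-EGFP tumors 1 and 2, against 49.4 and 270.9 in EGFP tumors 1 and 2. Ccl9 (1417936_at) read 61.7 and 144.9 against 31.3 and 192.1. For both genes tumor 2 was high in each group, so p62-EGFP tumor 2 came close to EGFP tumor 2. The second probe sets gave the same order, with 28.4 and 59.0 against 17.9 and 100.9 for Ccl6 (1420249_s_at) and 38.4 and 79.6 against 20.9 and 90.0 for Ccl9 (1448898_at). The suffix of that second Ccl6 probe set marks probes that can match more than 1 transcript.

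Between groups, the log2 differences of the brighter probe sets were 0.29 for Ccl6 (SE 0.76, 95% interval -1.64 to 2.21) and 0.17 for Ccl9 (SE 0.75, 95% interval -1.71 to 2.06), far within the spread between tumors (limma adjusted p = 0.879 and 0.928). The second Ccl6 probe set gave -0.13, so the 2 probe sets of Ccl6 disagreed in sign, and that of Ccl9 gave 0.21 (limma adjusted p = 0.939 and 0.880). Against EGFP tumor 1 alone the brighter probe sets were higher in p62-EGFP, by 1.35 for Ccl6 and 1.24 for Ccl9. Against EGFP tumor 2 alone the differences were -0.78 and -0.90. For the second probe sets the differences were 0.77 and 0.97 against EGFP tumor 1 alone and -1.02 and -0.56 against EGFP tumor 2 alone.

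Within the p62-EGFP group, Ccl6 and Ccl9 ranked high among all probe sets by their difference between the tumors. The log2 difference of tumor 2 minus tumor 1 was 1.19 for Ccl6 and 1.05 for Ccl9, the 24th and 36th highest of 13576 tested probe sets, of which 0.309% exceeded 1. The second probe sets of the same genes gave 0.76 and 0.81, the 108th and 77th highest. In the EGFP group the brighter ones differed by 2.13 and 2.14. Over the same p62-EGFP tumors the median difference was 0.22 for the 5 leukocyte genes and 0.0095 for the 13 macrophage genes. Single macrophage genes, chosen after their values were seen, went either way. Csf1r, the macrophage growth factor receptor gene, read 305.8 and 308.9, Mrc1 62.3 and 103.6, and C1qb 298.1 and 247.2. Of the other ligands, Ccl8 read 163.1 and 343.3 in p62-EGFP tumors 1 and 2, and Pf4, a chemokine of platelets and macrophages, 47.2 and 119.1, so both were also higher in p62-EGFP tumor 2. Adipocyte genes, of which 4 were measured with Fabp4, Retn and Adipoq the brightest, were also higher in tumor 2 of each group, with sums of 252.4 and 794.8 in p62-EGFP tumors 1 and 2, against 722.3 and 1316.3 in EGFP tumors 1 and 2. Most of these sums was Fabp4, at 219.8 and 691.1 against 698.9 and 1303.5, which macrophages and endothelial cells can express too. Skeletal muscle genes, led by Acta1, Mylpf and Myh1, went the other way in the p62-EGFP group, with a sum of 3225.1 in tumor 1 and 46.7 in tumor 2. The part of fat or muscle in the chemokine values was not tested. Each of Ccl6 and Ccl9 had the other as the gene nearest in profile (distance 0.15), and next came Eps8, a signalling adaptor, at 36.3 and 55.0 against 6.3 and 84.6.

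**Figure D3:**
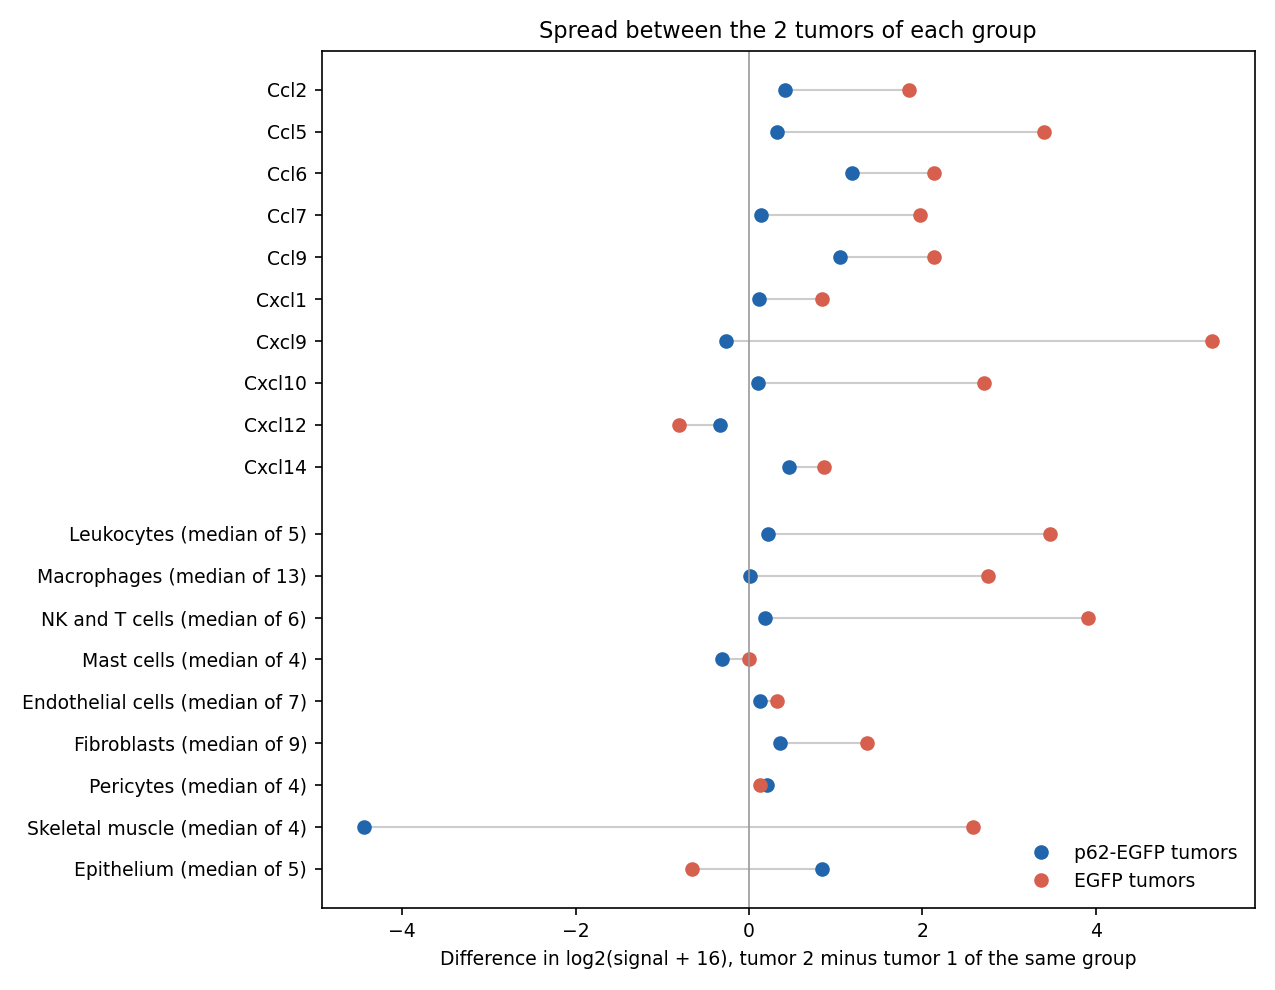
Difference in log2(signal + 16) between tumor 2 and tumor 1 of the p62-EGFP group (blue) and of the EGFP group (red), for each chemokine gene by its brightest probe set and for the median of the tested genes of 9 cell type lists. In the EGFP group Cxcl9 reaches 5.34 and the NK and T cell median (6 of 14 genes) 3.91. In the p62-EGFP group Ccl6 and Ccl9 lie at 1.19 and 1.05 and the macrophage median at 0.0095.

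Within the EGFP group, 10 of the 14 chemokine probe sets stood more than 1 log2 unit higher in tumor 2 than in tumor 1, where 4.24% of all tested probe sets did so. None stood more than 1 log2 unit lower (1.39% of all tested probe sets). EGFP tumor 2 was the highest of the 4 tumors for 9 of the 14, against 22.9% of all tested probe sets, and EGFP tumor 1 the lowest for 11 of the 14, against 21.1%. Ccl6, Ccl9, Cxcl12 and Cxcl14 each count with 2 probe sets here. The sizes differed between genes, with EGFP log2 differences of 5.34 for Cxcl9, 3.40 for Ccl5 and 2.71 for Cxcl10, against 1.84 for Ccl2. Beside them, the medians were 3.47 for the 5 leukocyte and 2.75 for the 13 macrophage genes. For NK and T cells the median was 3.91 over the 6 of 14 genes that passed the signal filter. Of these, all but Thy1 passed it only through EGFP tumor 2, so the size of this median depends on the filter.

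Cxcl1 and Cxcl14 were dim in every tumor. Cxcl1 (1419209_at), a neutrophil attractant and a known NF-kB target, read 33.5 and 37.4 in p62-EGFP tumors, against 11.8 and 33.8 in EGFP tumors 1 and 2. Thus 3 of the tumors were alike and EGFP tumor 1 was low, and the promoter windows of Cxcl1 and Cxcl10 both held kB matches. The log2 difference of 0.47 did not pass where dim probe sets were kept (limma adjusted p = 0.609). Of 8 listed neutrophil genes 7 were measured, their sums lay at 58.5 and 79.1 in p62-EGFP tumors, against 64.1 and 121.8 in EGFP tumors, and none passed the filter. Cxcl14, a chemokine that epithelia and fibroblasts make, read 32.9 and 51.2 against 11.4 and 34.0 on its brighter probe set (1418456_a_at), and 31.9 and 47.1 against 6.9 and 34.7 on the other (1418457_at). On both probe sets p62-EGFP tumor 2 was the highest and EGFP tumor 1 the lowest, and p62-EGFP tumor 1 lay just under EGFP tumor 2. The log2 differences of 0.63 and 0.69 did not pass where dim probe sets were kept (limma adjusted p = 0.550 and 0.575). Against EGFP tumor 1 alone the differences were 0.89 for Cxcl1 and 1.06 and 1.26 for Cxcl14, and against EGFP tumor 2 alone 0.046 and 0.20 and 0.12. Their means over the 4 tumors lay at the 37.7th percentile of all probe sets for Cxcl1 and the 38.9th for the brighter probe set of Cxcl14, just under the 40th used as the limit, and Ccl7 lay at the percentile of 38.1. Just above it, the second Ccl6 probe set lay at the 44.8th.

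**Figure D4:**
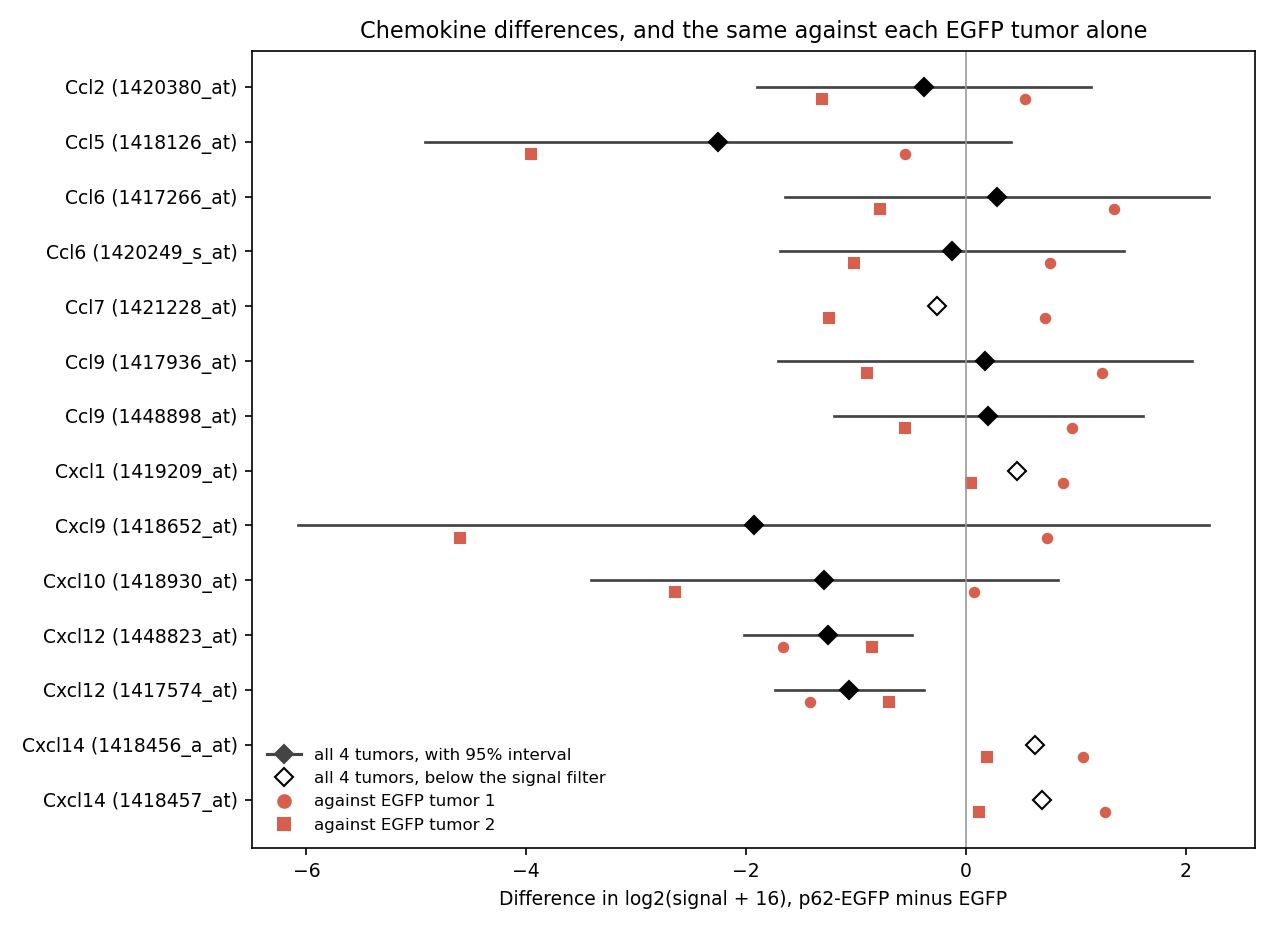
Difference in log2(signal + 16), p62-EGFP minus EGFP, for the 14 chemokine probe sets, as black diamonds with 95% intervals (open and without an interval below the signal filter), and the same difference against EGFP tumor 1 (red circles) and EGFP tumor 2 (red squares) alone. Cxcl12 lies below 0 in all 3 measures, between -1.66 and -0.70, whereas Cxcl9 lies at 0.74 against EGFP tumor 1 and at -4.60 against EGFP tumor 2.

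Other chemokine ligands were measured as a list. Of 27 listed, 24 were on the array under 1 symbol and 9 were tested. None passed (0 at an unadjusted limma p below 0.05), 1 had both p62-EGFP tumors above both EGFP tumors, 0 had both below (26.7% and 22.2% of all tested probe sets). The median log2 difference was -0.33, and its sign turned with the EGFP tumor, to 0.39 against EGFP tumor 1 alone and -1.71 against EGFP tumor 2 alone. Ccl8, a CC ligand of macrophages, read 163.1 and 343.3 in p62-EGFP tumors, against 66.1 and 992.8 in EGFP tumors, and Cxcl16, a membrane-bound ligand of macrophages, 119.6 and 123.5 against 88.6 and 456.7. Both had EGFP tumor 2 highest and EGFP tumor 1 lowest (limma adjusted p = 0.954 and 0.656). Ccl27a, an epithelial chemokine, read 104.9 and 112.7 against 171.6 and 79.1, so here EGFP tumor 2 was the lowest. Pf4 read 47.2 and 119.1 against 57.4 and 82.2. Ccl3, a macrophage ligand whose gene follows Ccl6 on chromosome 11 and which was chosen after its values were seen, read 1.5 and 2.9 against 11.9 and 337.4 and was not tested.

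Among the receptors, 17 of 19 listed were on the array and 4 were tested. Of these 0 passed and 0 stood at an unadjusted limma p below 0.05 (0.0884% and 14.5% of all tested probe sets). Their median log2 difference was -0.55 (-0.095 against EGFP tumor 1 alone and -1.32 against EGFP tumor 2 alone). Beside Cxcr4 and Ccr2, the tested receptors were Cx3cr1 and Ccrl2, a receptor that binds without signalling. Cx3cr1, the fractalkine receptor of macrophages and NK cells, read 51.1 and 46.0 in p62-EGFP tumors, against 50.0 and 71.1 in EGFP tumors. Ccrl2 read 31.4 and 31.3 against 48.0 and 145.0 (log2 difference -1.10, SE 0.44, limma adjusted p = 0.348). Of the 4 tested receptors, 1, Ccrl2, had both p62-EGFP tumors below both EGFP tumors, where 22.2% of all tested probe sets did so. Enzymes that process chemokines were read through 6 genes, of which 3 were tested. Again 0 passed and 0 stood at an unadjusted limma p below 0.05 (0.0884% and 14.5% of all tested probe sets). The protease gene Ctss read 432.2 and 511.4 in p62-EGFP tumors, against 209.1 and 1949.0 in EGFP tumors, Mmp14 54.4 and 83.7 against 60.3 and 319.4, and Mmp2 64 and 68.3 against 23.1 and 72.0.

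**Figure D5:**
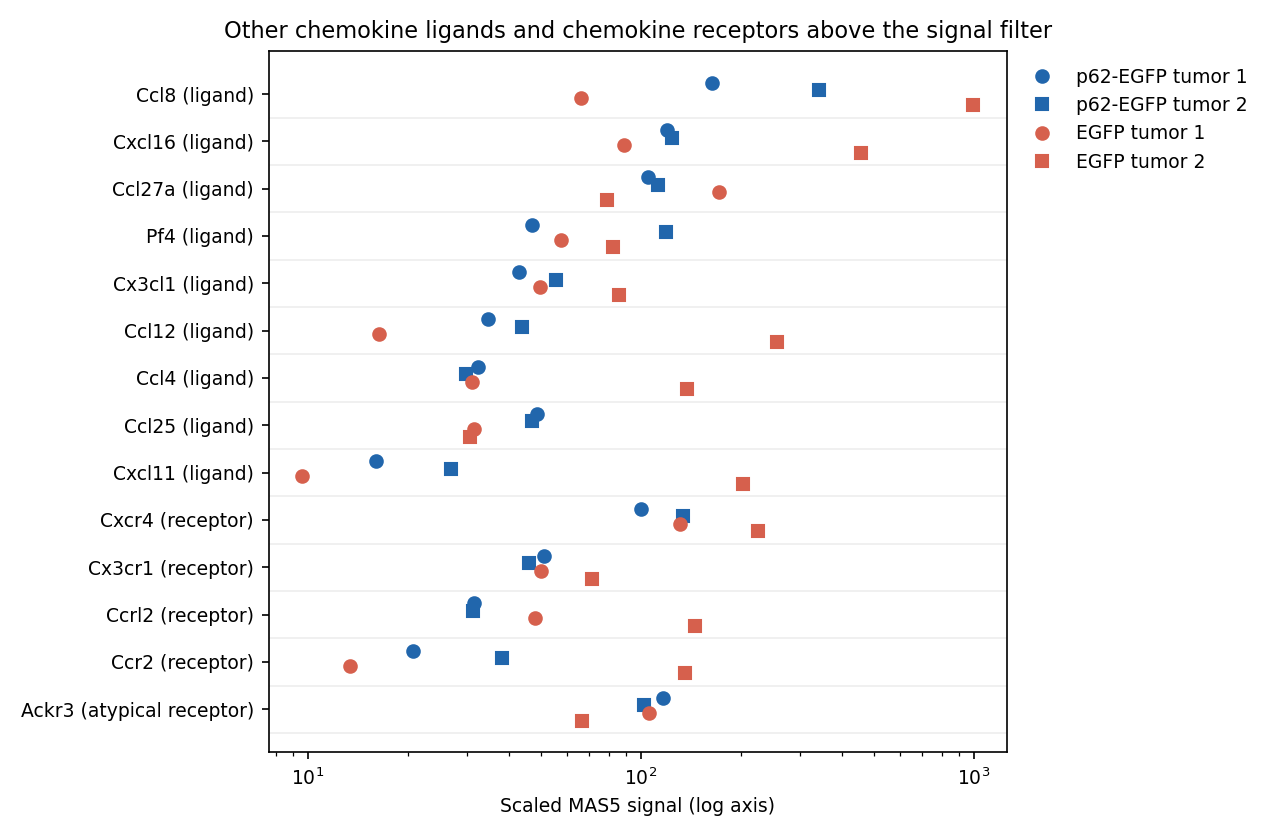
Scaled MAS5 signal (log axis) of the other chemokine ligands and the chemokine receptors that passed the signal filter, with p62-EGFP tumors in blue and EGFP tumors in red, circles for tumor 1 and squares for tumor 2. EGFP tumor 2 is the rightmost point for Ccl8 (992.8), Cxcl16 (456.7) and Cxcr4 (225.1), and the leftmost for Ccl27a (79.1) and Ackr3 (66.4).

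The NF-kB arm, through which many chemokine genes are induced, was measured with 9 tested genes of 15 listed. None passed, and 3 had an unadjusted limma p below 0.05 (14.5% of all tested probe sets). Of the 9, 5 had both p62-EGFP tumors below both EGFP tumors (22.2% of all) and 1 had both above (26.7% of all). The list's median log2 difference was -0.44, with -0.24 against EGFP tumor 1 alone and -0.51 against EGFP tumor 2 alone. Nfkbia, the inhibitor that NF-kB itself induces, read 1411.4 and 1631.0 in p62-EGFP tumors, against 1031.8 and 2160.7 in EGFP tumors, so it ordered the tumors as Ccl2 did. The subunit gene Rela read 441.6 and 483.0 against 628.3 and 601.8, the receptor gene Tnfrsf1a 243.4 and 258.3 against 392.1 and 414.7, and the kinase gene Ikbkb 252.8 and 251.9 against 341.8 and 356.7. For Rela, Tnfrsf1a and Ikbkb the groups did not overlap and EGFP tumors 1 and 2 lay close to each other, with limma adjusted p = 0.300, 0.219 and 0.294. For Cxcl9, Cxcl10, Ccl5 and Ccl2 the EGFP tumors lay far apart, and they also differed for other genes of this list. For 2 of the 9 tested, Nfkbia and Nfkbiz, EGFP tumor 2 stood more than 1 log2 unit above EGFP tumor 1 (4.24% of all). EGFP tumor 2 was the highest of the 4 tumors for 7 of the 9 (22.9% of all). Nfkbiz, named after its values were seen, read 115.5 and 126.7 against 117.6 and 258.7.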

How the data were processed

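Total RNA of 4 tumors (2 p62-EGFP, 2 EGFP) was extracted with Trizol, labelled with biotin and hybridized to Affymetrix Mouse Genome 430A 2.0 arrays, per the labels' protocols and the design text. Signal intensity was deposited on a linear scale. The submitters' processing notes name MAS5, without its version or settings. Mean signal after trimming 2% of probe sets at each end was 150.04 on each array, so the deposited values were not rescaled. Of 22690 probe sets, 64 controls were left out. Of the others, 20380 had 1 gene symbol in the array annotation.

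Signals were transformed as log2(signal + 16). The 13576 probe sets with a mean at or above the 40th percentile (5.60) were tested with lmFit and eBayes (trend) of limma (3.58.1, under R 4.3.3) as two-sided tests, and p-values were adjusted by Benjamini-Hochberg over all of them. The design text names Genes@Work, which was not run here. Intervals (95%) and SE are limma's moderated ones. The code was tested on simulated data. With 2 tumors a group, 2 residual degrees of freedom limit the precision. A fit with the replicate number as a block, other scalings, pseudocounts and filters, the mean of a gene's probe sets, and fits without each tumor were tried. A gene with several probe sets was represented in lists by the one with the highest mean.

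The members and lists were chosen with earlier results of these data known. Named were all member probe sets, up to 4 of the brightest tested genes of each pathway list, up to 3 of the brightest of each cell type list and up to 2 tested genes nearest in profile to a member; other names are said to be chosen later. Promoters are RefSeq's (GRCm38.p6), and that assembly was used otherwise only for gene order and chromosomes. Figures were drawn with Python 3.11.15 and matplotlib 3.10.9.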

Additional observations from a re-analysis of the deposited data

How the results depend on the processing

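Over 13 alternatives, the median log2 difference of the chemokine probe sets was -0.19 with all tumors and moved to 0.75 without EGFP tumor 2 and 0.039 without p62-EGFP tumor 1, in a range of -0.87 to 0.75 over the fits that left out 1 tumor. In those fits 0 to 8 chemokine probe sets passed. The 8 without EGFP tumor 1 were all lower in p62-EGFP (9.74% of all tested probe sets were), and the 4 without EGFP tumor 2 were Ccl6 and Ccl9, higher (5.15%), and both of Cxcl12, lower (4.38%); 0 passed without either p62-EGFP tumor. No tested probe set of any gene passed without either p62-EGFP tumor, so those fits cannot tell chemokines from other genes. The fit without EGFP tumor 1 tested 14 chemokine probe sets, and each other fit that left out 1 tumor tested 10, so their counts have different bases. The alternatives that kept all tumors gave 0 chemokine calls each, with limma adjusted p-values of 0.108 to 0.326 for the brighter Cxcl12 probe set.

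Over all probe sets 12 passed (limma), with 6 under no filter, 7 at the 60th percentile, 37 with the replicate block, 1 for the mean of a gene's probe sets, and 0 to 2835 with 1 tumor left out. The replicate numbers were not taken to pair the tumors: the differences of tumor 2 minus tumor 1 in both groups correlated at 0.082 over 13576 probe sets, and the block gave 0 chemokine calls.

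Signs turned only where a tumor was left out. The lowest and highest log2 differences were -1.31 and 0.54 for Ccl2, -0.78 and 1.35 for the brighter and -1.02 and 0.77 for the second Ccl6 probe set, -1.25 and 0.72 for Ccl7, -0.90 and 1.24 and -0.56 and 0.97 for the brighter and second of Ccl9, -4.60 and 0.74 for Cxcl9, and -2.64 and 0.071 for Cxcl10. Those of Ccl5, Cxcl1, Cxcl12 and Cxcl14 kept their sign in every fit. The cause of these changes was not tested. Dim probe sets (Ccl7, Cxcl1, Cxcl14) lay under the filter, and with 2 tumors a group a difference of the size of Ccl5's did not pass.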
